A study of Mus musculus with 4 samples.

Results

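The 10 genes described here carry glucose into the cell, break it down to pyruvate and reduce pyruvate to lactate. They were taken by gene symbol from a table of 47561 symbols, and all 10 were found: the glucose transporter gene Slc2a1, the hexokinase genes Hk1 and Hk2, the phosphofructokinase gene Pfkl, the enzyme genes Aldoa, Tpi1, Pgk1, Eno1 and Pkm, and the lactate dehydrogenase gene Ldha. Each was measured by RNA-seq in 4 libraries of LSK cells, which are mouse bone marrow cells sorted for Sca-1 and c-Kit and against lineage markers and which hold the blood stem cells and multipotent progenitors. The mice were C57BL/6 and 12 weeks old. The control group, Metrn f/f, had 2 mice with a floxed Metrn gene, which encodes the secreted protein Meteorin. The other group, Metrn cKO, had 2 mice with the same floxed gene and LysM, so the floxed gene was present in all 4 mice. LysM is used to drive deletion in myeloid cells such as macrophages and neutrophils. Whether it also acted in the LSK cells themselves was not tested.

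Glycolysis splits glucose in the cytoplasm and yields ATP without oxygen. Hexokinase traps glucose as glucose 6-phosphate, phosphofructokinase commits it to breakdown, and the enzymes from aldolase to pyruvate kinase turn the products into pyruvate. Lactate dehydrogenase then regenerates the NAD+ that the pathway needs. Blood stem cells in their oxygen-poor marrow niche are known for relying on glycolysis, and the transcription factor HIF-1 is a known activator of these genes.

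Mice of 1 genotype differed widely, and this bears on every value below. Values were taken as FPKM, a unit inferred from their decimals and unequal totals. FPKM are fragment numbers scaled by transcript length and by mapped fragments, so different genes share a unit if this holds. The values still depended on transcript length, and differently in each library, as described below. Levels of genes of unlike length are therefore compared with caution. Read depth was unknown. The FPKM values summed to 392717 and 671802 in the control mice and to 562401 and 412955 in the Metrn cKO mice. Metrn f/f 2 and Metrn cKO 1 stood apart from Metrn f/f 1 and Metrn cKO 2. In the first pair, 8 late neutrophil marker genes such as S100a8 summed to 32529 and 58421 FPKM, against 2550 and 2002 in the second pair. Erythroid markers (8 genes, with globin genes giving most of the sum) summed to 37546 and 31394 against 3961 and 3205. Macrophage and monocyte markers (8 genes) summed to 1865 and 1146 against 415 and 367, of which Ly6c2 gave 869 and 944 against 363 and 309. B and plasma cell markers (8 genes) summed to 3405 and 10781 against 212 and 305. T and NK cell markers (6 genes) summed to 259 and 178 against 151 and 145, nearly all of it Nkg7, and platelet markers (4 genes) to 86.9 and 20.4 against 33.9 and 30.1. Of these markers Ms4a1 was listed at 0 in Metrn cKO 2, Cd3d in Metrn f/f 1, and Cd3e and Cd3g in Metrn cKO 2. The 7 genes of the LSK sort and of stem cells summed to 457 and 332 FPKM in Metrn f/f 2 and Metrn cKO 1 and to 632 and 723 in the other libraries. Kit, the c-Kit receptor gene, was at 24.8 and 25.9 FPKM there and at 108 and 116 in the others. Ly6a, the Sca-1 gene, ran the other way, at 83.2 and 48.4 FPKM against 37.2 and 38.2, as did Cd48, at 78.7 and 56.3 against 54.5 and 50.6. Transcripts of Kit have 5227.5 bases and those of Ly6a 862, and levels moved with length. With the length trend described below subtracted, Metrn f/f 2 minus Metrn f/f 1 in log2(FPKM + 1) moved from -2.08 to -0.87 for Kit. It moved from 1.14 to 0.29 for Ly6a and from 0.52 to -0.18 for Cd48. Metrn cKO 1 minus Metrn cKO 2 moved from -2.12 to -1.50 for Kit and from 0.33 to 0.22 for Ly6a. Markers of the sort were thus present in all 4 libraries, and transcripts of mature blood cells, which a lineage-negative sort should leave out, stood beside them. In bulk RNA, a change in the share of a cell type and a change in RNA per cell cannot be told apart.

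The glycolytic genes fell into an abundant and a less abundant set. Over the 4 libraries, the mean level was highest for Pkm (479 FPKM), followed by Aldoa (334), Eno1 (315), Ldha (273), Tpi1 (217) and Pgk1 (176). These 6 genes ranked between 149 and 367 among the 13148 genes that reached 1 FPKM in 2 or more libraries. Hk1 (42.3 FPKM), Pfkl (33.5), Slc2a1 (10.1) and Hk2 (9.65) lay below them, and Slc2a1 and Hk2 were near the middle of all tested genes, at ranks 6574 and 6732. The lowest value of the abundant set, 149 FPKM for Pgk1, was above the highest value of the other set, 55.3 FPKM for Hk1. The abundant set also has the shorter transcripts, of 1204.5 to 2236.5 bases against 3260 to 4152.5. The part of transcript length in this order was not tested. Within the abundant set the ranges of neighbours overlapped. Aldoa, Eno1 and Ldha spanned 244 to 459.5, 231 to 424 and 200.2 to 365 FPKM. Within a library, Ldha was below Aldoa and Eno1 in 4 of 4, and Aldoa was above Eno1 in 3 of 4, Metrn cKO 1 being the exception. Slc2a1 and Hk2 overlapped as well. Together the 10 genes summed to 1618 and 2213 FPKM in the control mice and to 2172 and 1558 in the Metrn cKO mice. As shares of all FPKM these were 0.412% and 0.329% in the control mice and 0.386% and 0.377% in the Metrn cKO mice. Metrn f/f 2 thus had the highest sum but the lowest share, since its total FPKM was the largest.

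**Figure D1:**
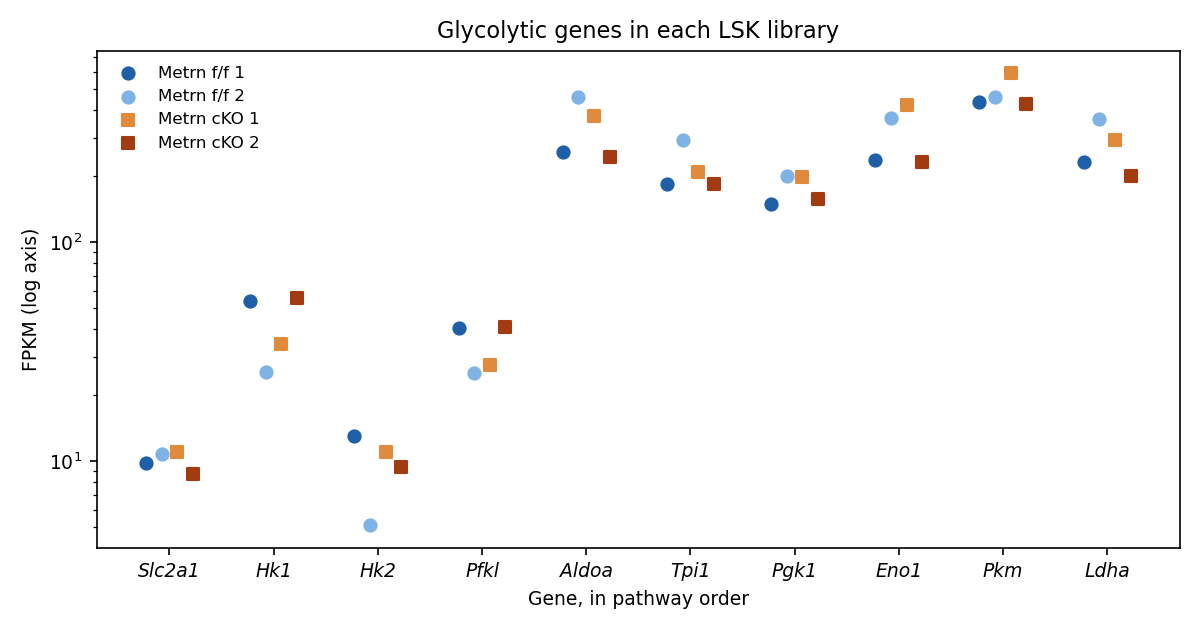
FPKM (log axis) of each of the 10 glycolytic genes, in pathway order, with 1 point per library (circles Metrn f/f, squares Metrn cKO). The 6 genes from Aldoa to Ldha sit at or above 149 FPKM in every library, and the circles and squares overlap for every gene.

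Glucose uptake and the first phosphorylations were compared first. Slc2a1 encodes GLUT1, the broadly expressed glucose transporter (chromosome 4, positions 119108711 to 119137983 of GRCm38). It was at 9.77 and 10.7 FPKM in the control mice and at 11.0 and 8.75 in the Metrn cKO mice. This was the narrowest range of the 10 genes, 1.26-fold from lowest to highest. Hk1 encodes the broadly expressed hexokinase that binds mitochondria (chromosome 10, positions 62268855 to 62379908). It was at 54.1 and 25.6 FPKM in the control mice and at 34.4 and 55.3 in the Metrn cKO mice. Metrn f/f 1 and Metrn cKO 2 were thus nearly level, and the other 2 libraries were the low ones. Hk2, the inducible hexokinase of muscle and of growing cells (chromosome 6, positions 82725025 to 82774454), was at 13.0 and 5.10 FPKM in the control mice and at 11.1 and 9.41 in the Metrn cKO mice. Metrn f/f 2 alone was low for Hk2, and its 2.56-fold range was the widest of the 10. Pfkl, the liver-type subunit of phosphofructokinase (chromosome 10, positions 77986947 to 78010083), was at 40.7 and 25.3 FPKM in the control mice and at 27.3 and 40.9 in the Metrn cKO mice, the same order of libraries as Hk1.

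For the enzymes that follow, Metrn f/f 2 and Metrn cKO 1 were the high libraries, opposite to Hk1 and Pfkl. Aldoa, the aldolase that splits fructose 1,6-bisphosphate (chromosome 7, positions 126795234 to 126800751), was at 258 and 459.5 FPKM in the control mice and at 376 and 244 in the Metrn cKO mice. Tpi1, the triosephosphate isomerase (chromosome 6, positions 124810586 to 124814296), was at 185 and 292 FPKM in the control mice and at 208 and 185 in the Metrn cKO mice. Metrn f/f 2 was highest for both. Pgk1, the phosphoglycerate kinase that makes the first ATP of the pathway (chromosome X, positions 106187100 to 106203699), was at 149 and 199.7 FPKM in the control mice and at 198 and 158 in the Metrn cKO mice. Eno1, an enolase (chromosome 4, positions 150236721 to 150248879), was at 237 and 369 FPKM in the control mice and at 424 and 231 in the Metrn cKO mice. Pgk1 was nearly level in the 2 higher libraries, whereas Eno1 was highest in Metrn cKO 1. Pkm, the pyruvate kinase gene whose splice forms PKM1 and PKM2 a gene total does not separate (chromosome 9, positions 59656368 to 59679375), was at 439 and 462 FPKM in the control mice and at 589.9 and 426 in the Metrn cKO mice. Only Metrn cKO 1 stood out for Pkm. Ldha, the lactate dehydrogenase subunit that favours lactate formation (chromosome 7, positions 46841475 to 46855627), was at 233 and 365 FPKM in the control mice and at 292 and 200.2 in the Metrn cKO mice. Metrn f/f 2 and Metrn cKO 1 were the 2 highest libraries for all 6 genes. The margin was smallest for Pkm among the control mice, at 1.05-fold, and for Tpi1 among the Metrn cKO mice, at 1.13-fold. Eno1 and Pgk1 have near-identical copies in the mouse genome, so their levels are uncertain. Eno1b had 9.65 to 15.3 FPKM and Pgk1-rs7 5.12 to 7.97.

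**Figure D2:**
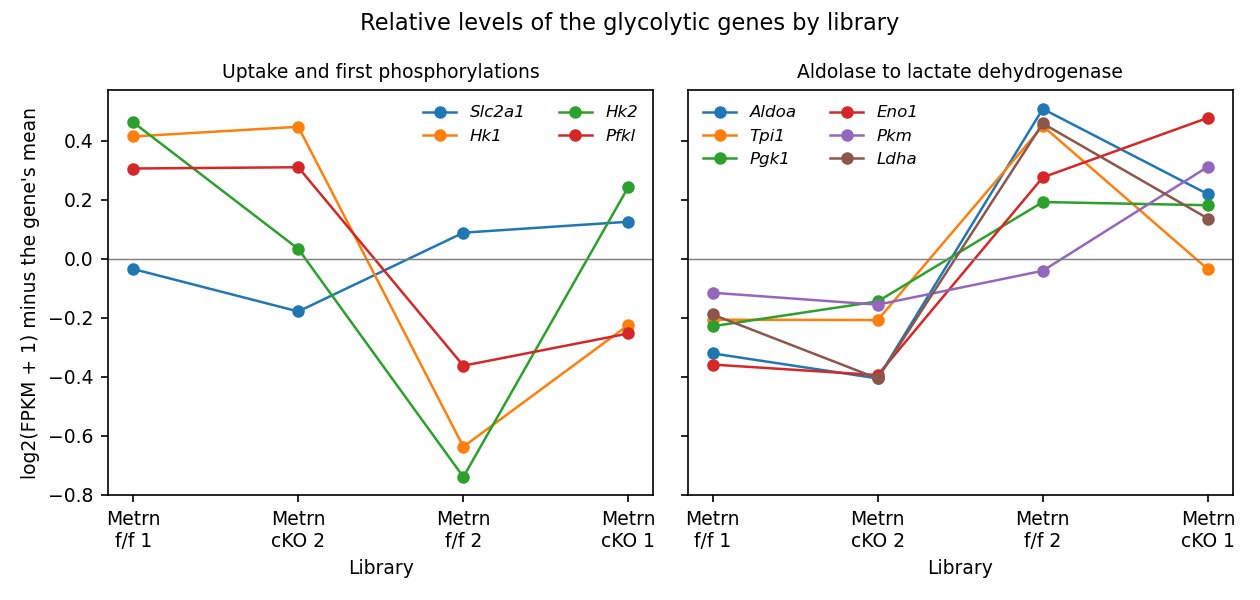
Level of each gene in each library as log2(FPKM + 1) minus the gene's mean over the 4 libraries, for Slc2a1, Hk1, Hk2 and Pfkl (left) and the 6 genes from Aldoa to Ldha (right). Lines only join the points of 1 gene, and the libraries are placed so that Metrn f/f 1 and Metrn cKO 2 are side by side: Hk1 and Pfkl are high there, and all 6 genes on the right are low there.

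Start regions are shown for 4 of the genes because Ldha, Pgk1 and Tpi1 stood high in Metrn f/f 2 and Metrn cKO 1 and Pfkl stood low there. Each window is the 250 bases upstream of a RefSeq transcript start (GRCm38.p6), written 5′ to 3′ on the strand of the gene. Capitals mark the core of the HIF binding site, ACGTG or GCGTG, on either strand.
Ldha, chr7:46845554-46845803, plus strand: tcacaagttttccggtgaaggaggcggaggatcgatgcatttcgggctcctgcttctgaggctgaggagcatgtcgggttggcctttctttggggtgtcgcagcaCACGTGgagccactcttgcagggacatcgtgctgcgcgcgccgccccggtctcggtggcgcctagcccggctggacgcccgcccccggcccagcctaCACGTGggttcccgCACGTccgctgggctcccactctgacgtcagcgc
Pgk1, chrX:106186850-106187099, plus strand: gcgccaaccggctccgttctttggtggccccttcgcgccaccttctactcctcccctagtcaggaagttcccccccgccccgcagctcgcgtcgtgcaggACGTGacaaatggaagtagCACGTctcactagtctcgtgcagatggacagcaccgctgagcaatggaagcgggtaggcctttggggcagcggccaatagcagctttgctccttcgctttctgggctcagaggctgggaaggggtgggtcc
Tpi1, chr6:124814159-124814408, minus strand: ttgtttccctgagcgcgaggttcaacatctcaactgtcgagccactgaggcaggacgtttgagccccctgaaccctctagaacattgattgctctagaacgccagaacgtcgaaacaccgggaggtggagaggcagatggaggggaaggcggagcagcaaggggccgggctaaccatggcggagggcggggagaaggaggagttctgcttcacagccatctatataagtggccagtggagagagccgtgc
Pfkl, chr10:78009808-78010057, minus strand: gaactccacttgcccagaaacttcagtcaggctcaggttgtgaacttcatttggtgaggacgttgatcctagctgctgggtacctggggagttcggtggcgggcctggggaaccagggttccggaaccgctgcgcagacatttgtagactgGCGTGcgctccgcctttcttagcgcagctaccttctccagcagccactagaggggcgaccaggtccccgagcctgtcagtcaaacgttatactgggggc
The Ldha window held 2 copies of the E-box CACGTG, a palindrome that contains the HIF core on each strand, and 1 further core, so that 5 core matches were counted. The Pgk1 window held 2 cores, the Pfkl window 1 and the Tpi1 window 0. Another Ldha window, not shown, held 1 core and 0 copies of the E-box. The RefSeq start of the Tpi1 window had no GENCODE start close to it. Counts for a gene thus depend on the start taken. Across the 10 genes, 9 had a core in at least 1 of their 17 windows, with Tpi1 the exception, and 13 of the 17 windows had one. Among all 32851 windows of the same length in the RefSeq table, 38.6% held the core and 6.02% the E-box. Of the 10 genes, 8 had a GC box, GGGCGG on either strand, in some window (32.7% of all windows), 1 gene had an E-box and 0 had TATAAA (12.4% of all windows). Genes with several starts had more windows in which to find a match. A pair of Aldoa windows and a pair of Eno1 windows overlapped, so that the 24 core matches lay at 21 distinct positions. The windows of the 10 genes were 49.6% to 71.2% G and C, and 15 of the 17 were above the median of all windows (52.4%). These counts describe letters and not binding.

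The comparison of genotypes asked whether deletion of Metrn through LysM went with a change of these genes in LSK cells. None of the 10 passed. By limma on log2(FPKM + 1) over all 13148 genes, 0 of the 10 were called higher and 0 lower at an adjusted p of 0.05, where 0% of all tested genes were called higher and 0% lower. At an unadjusted p under 0.05 there were 39 of all genes and 0 of the 10. For each of the 10 genes the adjusted p was 1.00. Both Metrn cKO values exceeded both control values in 0 of the 10 genes (6.31% of all genes) and below them in 0 of the 10 (5.73% of all genes). The median log2 fold change of the 10 was 0.05, beside 0.07 for all tested genes, with 6 genes above 0 and 4 below. Ldha had the most negative value, -0.27 (SE 0.52, 95% interval -1.51 to 0.97), with means of 299 ± 93.6 FPKM in control and 246 ± 64.9 in Metrn cKO mice (SD, n = 2 each). Hk2 had the most positive, 0.28 (SE 0.56, 95% interval -1.08 to 1.63), from 9.06 ± 5.60 to 10.2 ± 1.16 FPKM (SD, n = 2 each). The other fold changes lay between -0.24 for Tpi1 and 0.22 for Hk1. Every interval reached past 0.9 on the log2 scale on both sides of 0, so differences of nearly 2-fold in either direction lay within it for each gene. Between the alike libraries, Metrn cKO 2 minus Metrn f/f 1, 0 of the 10 genes differed by 1.5-fold in either direction (3.35% of all genes were higher and 2.42% lower). Their differences ran from -0.43 for Hk2 to 0.08 for Pgk1 on the log2(FPKM + 1) scale. Between the other 2 libraries, Metrn cKO 1 minus Metrn f/f 2, only Hk2 passed 1.5-fold, at 0.98 (21.7% of all genes were higher and 18.1% lower). With the trend over transcript length, described below, subtracted from each library, Hk2 was at 0.52 in this pair and 0 of the 10 genes passed (13.1% of all genes were higher and 11.0% lower). These pairs have 1 library on each side and no test.

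**Figure D3:**
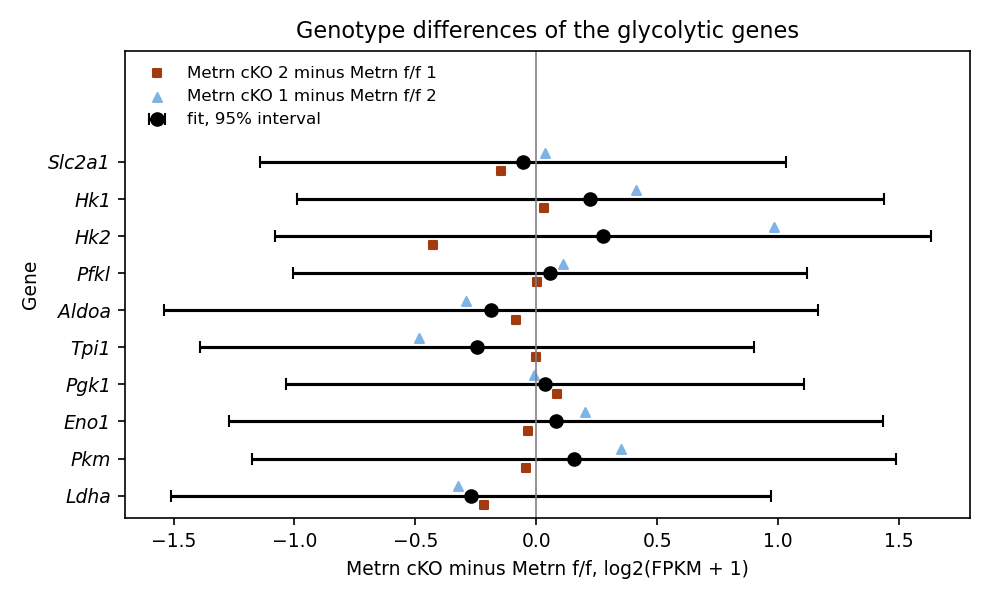
Difference between Metrn cKO and Metrn f/f for each gene on the log2(FPKM + 1) scale: black points and bars are the limma estimate and its 95% interval over 4 libraries, and coloured points are single pairs of libraries. All intervals include 0, and Metrn cKO 2 differs from Metrn f/f 1 by at most 0.43 in size.

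Mice of the same genotype differed in these genes as well. Metrn f/f 2 exceeded Metrn f/f 1 by at least 1.5-fold in 4 of the 10 genes (23.6% of all genes) and lay below it by as much in 3 (36.8% of all genes). The higher genes were Aldoa (0.83 on the log2(FPKM + 1) scale), Tpi1 (0.66), Ldha (0.65) and Eno1 (0.63), and the lower ones were Hk2 (-1.20), Hk1 (-1.05) and Pfkl (-0.67). Metrn cKO 1 exceeded Metrn cKO 2 by 1.5-fold in 2 genes (12.4% of all genes), Eno1 (0.87) and Aldoa (0.62), and lay below it in 1 (30% of all genes), Hk1 (-0.67). The direction was the same in both pairs for 9 of the 10 genes, Hk2 being the exception, and for 75.7% of all tested genes.

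Transcript length moved with these differences. Slc2a1, Hk1, Hk2 and Pfkl have transcripts of 3260 to 4152.5 bases, and the 6 genes from Aldoa to Ldha of 1204.5 to 2236.5 bases (median of the GENCODE transcripts of each gene). Between Metrn f/f 2 and Metrn f/f 1, the median difference over all genes was 0.95 for transcripts under 1000 bases (2070 genes), 0.39 from 1000 to 2000 (3021 genes), -0.24 from 2000 to 3000 (2840 genes), -0.67 from 3000 to 4000 (1896 genes) and -1.25 from 4000 bases on (2599 genes). Between Metrn cKO 1 and Metrn cKO 2 the same bins had 0.15, -0.03, -0.21, -0.35 and -0.64. In the alike pair, Metrn cKO 2 minus Metrn f/f 1, the medians only ranged from -0.01 to 0.09. The Spearman correlation of difference and length across 12426 genes, which share the libraries and are not independent, was -0.67 for the Metrn f/f pair, -0.38 for the Metrn cKO pair and -0.15 for the alike pair. It was 0.57 for Metrn cKO 1 minus Metrn f/f 2, so longer transcripts were higher in Metrn cKO 1 of that pair.

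With the length trend subtracted in each library, a step added after the data were seen, the contrast within the pathway shrank. In the Metrn f/f pair, Hk1 moved from -1.05 to -0.28, Hk2 from -1.20 to -0.29, Pfkl from -0.67 to 0.10 and Tpi1 from 0.66 to 0.07. Eno1 moved from 0.63 to 0.58, Aldoa from 0.83 to 0.47 and Ldha from 0.65 to 0.34, whereas Slc2a1 moved from 0.12 to 0.72. Of the 10 genes, 1 (Slc2a1) was then 1.5-fold higher (17.9% of all genes) and 0 were 1.5-fold lower (15.6% of all genes). In the Metrn cKO pair 6 genes were then 1.5-fold higher in Metrn cKO 1, where 16.6% of all genes were: Eno1 (1.03), Aldoa (0.70), Hk2 (0.69), Pkm (0.67), Slc2a1 (0.63) and Ldha (0.63). Hk1 (-0.26) and Pfkl (-0.16) were the only ones below 0. The genotype comparison without the length trend still called 0 of the 10 genes. Its log2 fold changes ran from -0.22 for Slc2a1 to 0.13 for Pkm. Those of Hk2 (0.036), Hk1 (0.013), Ldha (-0.16), Aldoa (-0.065), Tpi1 (-0.065) and Pkm were nearer to 0 than with the trend. Those of Slc2a1, Pfkl (-0.15), Pgk1 (0.094) and Eno1 (0.11) were further from 0. Neutrophil, red cell, macrophage and B cell markers stood high in the same 2 libraries, and their part in the levels of the glycolytic genes was not tested.

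**Figure D4:**
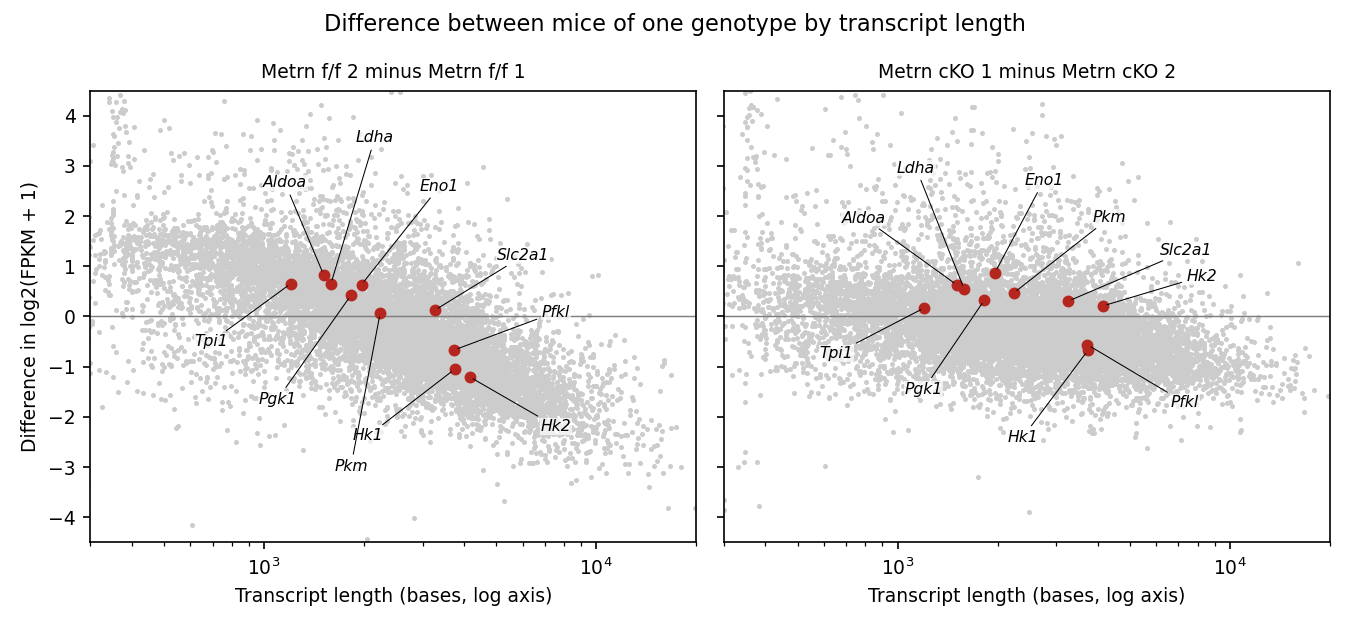
Difference in log2(FPKM + 1) between mice of 1 genotype against transcript length (log axis) for 12426 genes in grey and the 10 glycolytic genes in red; 408 and 431 genes lie outside the axes. In both panels the grey cloud falls with length, and Hk1 and Pfkl lie lower on it than the shorter Aldoa, Eno1 and Ldha.

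Shares within a gene family do not depend on a scale factor common to a library, though isoforms of different length can still move with the length trend. The isoforms were compared next (8 shares in 7 families, each as a percentage of the family's summed FPKM). The glycolytic enzymes from aldolase on were each dominated by 1 gene. Aldoa made up 98.9%, 99.2%, 99.5% and 98.8% of Aldoa and Aldoc in Metrn f/f 1, Metrn f/f 2, Metrn cKO 1 and Metrn cKO 2. Pkm made up 98.9% to 99.7% beside Pklr, the pyruvate kinase of liver and red cells. Eno1 made up 92.1% to 96.0% beside Eno2 and Eno3. Both Metrn cKO values of Eno3, the muscle enolase, exceeded both control values (16.5 and 16.1 in control against 17.5 and 19.1 FPKM), as in 6.31% of all tested genes. Ldha made up 88.6%, 88.8%, 91.5% and 84.3% beside Ldhb, the subunit that favours pyruvate formation. Ldhb was at 30.1 and 46.0 FPKM in the control mice and at 27.0 and 37.2 in the Metrn cKO mice, so the Metrn cKO mice were the lowest and the highest for the share of Ldha.

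The first steps were shared among isoforms. Hk3, a hexokinase found mainly in granulocytes and other myeloid cells, was the most abundant one, at 86.3 and 62.8 FPKM in control and 118 and 71.3 in Metrn cKO mice. Its share was 56.3%, 67.2%, 72.3% and 52.4%, in the order of libraries above, and that of Hk1 was 35.2%, 27.3%, 21.0% and 40.7%. The share of Hk3 was thus highest, and that of Hk1 lowest, in the 2 libraries with the most late neutrophil transcripts, whose part was not tested. The transcripts of Hk3 (2988.5 bases) are shorter than those of Hk1 (3745 bases). With the length trend subtracted, Hk3 differed by 0.03 and Hk1 by -0.28 between Metrn f/f 2 and Metrn f/f 1 on the log2(FPKM + 1) scale, against -0.45 and -1.05 before. Between Metrn cKO 1 and Metrn cKO 2 they differed by 1.02 and -0.26, against 0.72 and -0.67 before. Hk2 held 5.45% to 8.49%. Pfkl held 51.6% to 54.7% of phosphofructokinase, with little difference between mice, beside Pfkm (17.0% to 30.5%) and Pfkp (17.9% to 28.3%). Slc2a3, which encodes the high-affinity transporter GLUT3, exceeded Slc2a1 in every library, with 20.1, 17.1, 19.4 and 20.0 FPKM, and Slc2a1 held 30.5% to 38.5% of the pair. Between genotypes the shares differed by at most 2.27 percentage points in size, for Slc2a1 (35.6% ± 4.10 in control and 33.4% ± 4.12 in Metrn cKO mice, SD, n = 2 each). The exact permutation test, 2-sided, gave p = 0.667 for Slc2a1 and p = 1 for the other 7, and 1 for all after Benjamini-Hochberg adjustment over 8 shares. The smallest p that 2 libraries against 2 can give is 0.333, so no share could pass.

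**Figure D5:**
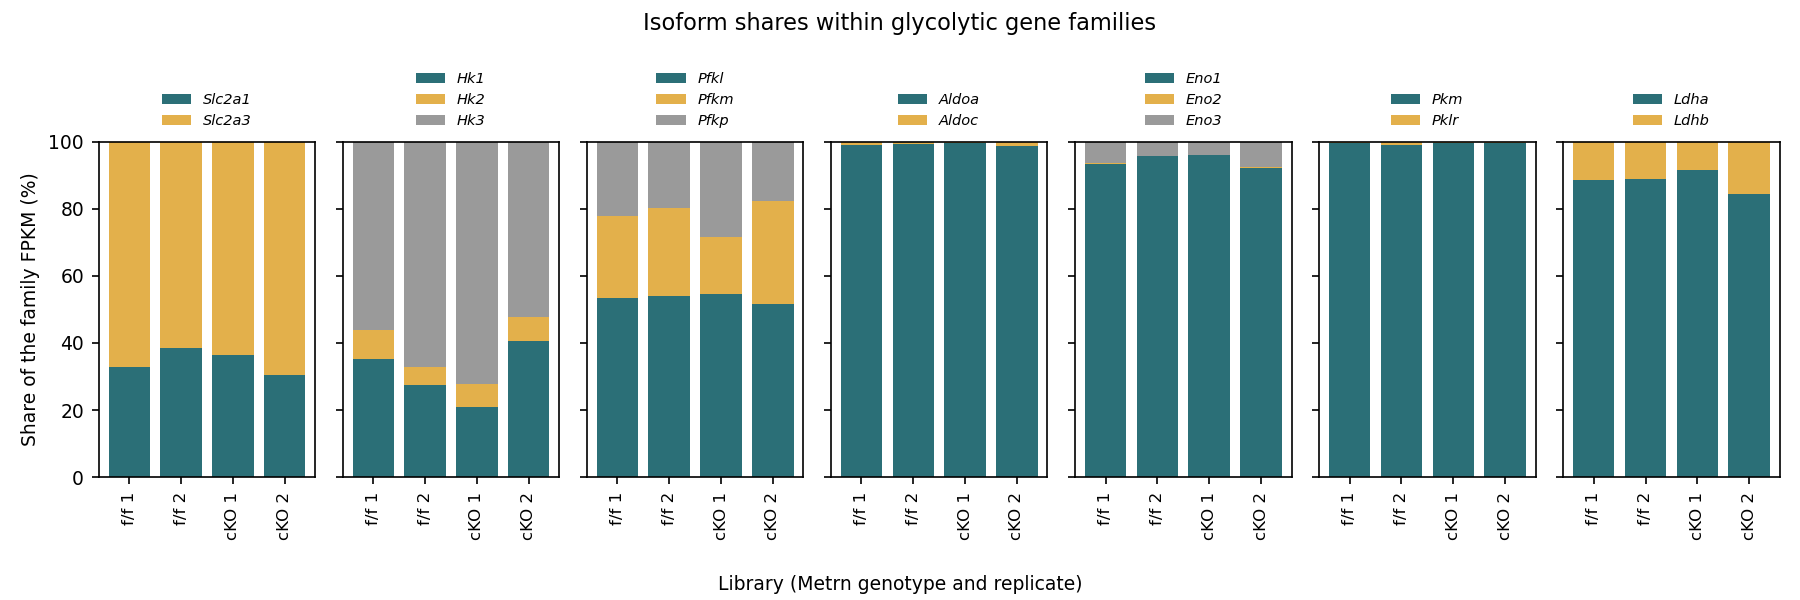
Share of each isoform in the summed FPKM of its family (%, stacked to 100) in each library, 1 panel per family. The shares of Hk1 and Hk3 change between mice of 1 genotype, and Aldoa, Eno1, Pkm and Ldha hold at least 84.3% of their families in every library.

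Neighbouring genes of glucose metabolism were read from the same fit in 7 lists, and 0 genes of these lists were called higher or lower. Among 19 other genes of glycolysis, 14 were tested, with a median log2 fold change of 0.03, and only Eno3 had groups that did not overlap (6.31% of all genes lay above without overlap and 5.73% below). Gpi1, which turns glucose 6-phosphate into fructose 6-phosphate, was at 240.3 and 288 FPKM in the control mice and at 383 and 228 in the Metrn cKO mice. Pgam1, the phosphoglycerate mutase, was at 151 and 157 FPKM in the control mice and at 171 and 135 in the Metrn cKO mice. Gapdh was listed at only 9.96 to 16.3 FPKM, far below Tpi1 and Pgk1, its neighbours in the pathway, and it has many near-identical copies in the genome, so its level is uncertain. Of 9 other glucose and lactate carriers, 7 were tested (median 0.08, 0 without overlap). Bsg, the chaperone of the lactate carriers, was at 117 and 274 FPKM in the control mice and at 149 and 126 in the Metrn cKO mice. Slc16a3, the lactate exporter MCT4, was at 7.10 and 16.4 FPKM in the control mice and at 22.5 and 6.10 in the Metrn cKO mice, higher in the 2 libraries where Aldoa, Eno1 and Ldha were high.

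Regulators of the pathway had fold changes above 0 in 7 of the 7 tested genes (8 listed, median log2 fold change 0.47), and the groups overlapped for each. Of all tested genes, 57.6% had a fold change above 0 (median 0.07). Between the alike libraries, Metrn cKO 2 minus Metrn f/f 1, 4 of the 7 were above 0 (median 0.07), and between Metrn cKO 1 and Metrn f/f 2 it was 5 of 7 (median 0.82). Txnip, a restraint on glucose uptake, was at 281 and 120 FPKM in the control mice and at 116 and 318 in the Metrn cKO mice. It was therefore low where Aldoa, Eno1 and Ldha were high, and its log2 fold change was 0.06 (SE 0.68). Pfkfb3 and Pfkfb4 make fructose 2,6-bisphosphate, the activator of phosphofructokinase. The list thus holds a restraint as well as genes that favour the pathway, and the shared sign gives no direction for it. Pfkfb3 was at 16.1 and 7.87 FPKM in the control mice and at 18.2 and 14.2 in the Metrn cKO mice. Pfkfb4 was at 6.12 and 7.10 FPKM in the control mice and at 21.2 and 6.50 in the Metrn cKO mice, so that Metrn cKO 1 alone was high.

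Of the genes for pyruvate entry into mitochondria, 12 of 13 were tested (median 0.02, 0 without overlap). Mpc2, a subunit of the pyruvate carrier, was at 31.4 and 91.7 FPKM in the control mice and at 59.3 and 33.3 in the Metrn cKO mice, whereas Pdha1, a subunit of pyruvate dehydrogenase, had 55.4 and 37.9 against 42.4 and 62.0. Pdhb, the partner subunit, was at 54.0 and 76.2 FPKM in the control mice and at 58.8 and 52.7 in the Metrn cKO mice. All 8 genes of the pentose phosphate pathway, which draws on glucose 6-phosphate to make NADPH and ribose, were tested (median 0.11, 0 without overlap). Metrn cKO 1 exceeded Metrn cKO 2 for 7 of the 8, and Metrn f/f 2 exceeded Metrn f/f 1 for 6. With the length trend subtracted, the median differences were 1.00 and 0.50. Taldo1, the transaldolase, was at 175 and 405 FPKM in the control mice and at 348 and 181 in the Metrn cKO mice. Tkt, the transketolase, was at 240.2 and 301 FPKM in the control mice and at 372 and 227 in the Metrn cKO mice, and Pgls, the lactonase, had 114 and 298 against 202 and 128.

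Genes of the HIF pathway moved in both directions between mice. Of 8 HIF factors and oxygen sensors, 7 were tested (median 0.22), and only Vhl, the ubiquitin ligase subunit that marks HIF for destruction, had groups without overlap (8.10 and 7.87 FPKM against 12.8 and 10.7, named after its values were seen). This is 1 gene of 7, where 6.31% of all genes lay above without overlap and 5.73% below, and it did not pass (limma, unadjusted p = 0.309, adjusted p = 1.00). With the length trend subtracted, the Vhl groups overlapped. Metrn f/f 2 was then 0.36 and Metrn cKO 2 0.31 above Metrn f/f 1 on the log2(FPKM + 1) scale. Metrn f/f 2 exceeded Metrn f/f 1 for 2 of the 7, and Metrn cKO 1 exceeded Metrn cKO 2 for 2. The median differences in these pairs were -0.42 and -0.23, and with the length trend subtracted they were 0.07 and 0.07. Egln2, Egln1 and Egln3 encode the prolyl hydroxylases that sense oxygen. Egln2 was at 25.6 and 29.4 FPKM in the control mice and at 26.1 and 27.7 in the Metrn cKO mice, Egln1 had 13.5 and 15.5 against 19.6 and 14.4, and Egln3 had 16.2 and 11.9 against 9.39 and 19.0. Of 13 HIF targets outside glycolysis, 11 were tested (median -0.15, 0 without overlap), of which 6 and 5 were higher in the same pairs. Ddit4, an inhibitor of mTORC1, was at 31.9 and 46.1 FPKM in the control mice and at 33.1 and 25.4 in the Metrn cKO mice, in the same order of libraries within each genotype as Ldha. Bnip3l, a mitophagy receptor, had 29.4 to 36.3 FPKM, and Ndrg1, a stress-responsive gene, was low only in Metrn cKO 1, at 16.4 FPKM against 31.0 to 35.9.

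The genes nearest to the median profile of the 10 were Atxn10, Klhdc4, Fh1, Arhgdia and Mad2l1, among 6527 genes with a mean of at least 10 FPKM. Likeness was the root mean square distance between profiles of log2(FPKM + 1), each centred on its mean over 4 libraries, and it ran from 0.0074 to 0.027. Fh1, the fumarase of the citric acid cycle, was at 42.2 and 51.7 FPKM in the control mice and at 53.0 and 42.3 in the Metrn cKO mice. With 4 points and a median profile that spans little, many genes lie close to it.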

How the data were processed

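LSK cells of 2 control (Metrn f/f) mice and 2 Metrn cKO mice were profiled by RNA-seq, 1 library per mouse per the labels' protocols. The authors deposited 1 table of FPKM per library, a value relative to transcript length and to the mapped fragments of the library. The unit was inferred from decimals and unequal totals, since the file headers name only the library. Per the submitters' processing notes, the build was mm10 and the tools were DESeq2 2.11.40.6, featureCounts 1.6.4, HISAT2 2.1, cutadapt 1.16.5 and bcl2fastq 2.19, with no role stated. Annotation and strand setting: not given in the sources used here. Tables were joined by symbol and not rescaled. The 13148 genes that reached 1 FPKM in 2 or more libraries were fitted with limma 3.58.1 in R 4.3.3 on log2(FPKM + 1), 2-sided, with an intensity trend and Benjamini-Hochberg adjustment over all genes (threshold 0.05). Fold changes on this scale understate those of low genes. The fit was run on simulated data with a common spread taken from the 2 most alike libraries. That spread is smaller than the one between mice of a genotype. The run therefore does not show what the fit could find in these data. Transcript lengths and gene positions came from GENCODE release 21 for mouse (GRCm38, called mm10), for 12426 tested genes, and upstream sequences from RefSeq (GRCm38.p6). The members and lists were chosen with earlier results of these data known. Named genes were the 10 members, the 3 most abundant genes of each list, the isoform families and the 5 nearest profiles. Alternatives were another pseudocount, no filter, 2 rescalings, no trend, a replicate block and each library left out.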

Additional observations from a re-analysis of the deposited data

How the results depend on the processing

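With 2 mice per genotype and unknown depth, only differences well above the spread between mice could pass. The call of 0 members held under each alternative tried, with adjusted p for the 10 genes between 0.620 and 1. Over all genes, 0 were called higher and 0 lower, except that with a replicate block 3 were higher and 1 lower. Without 1 library the counts ran from 0 to 32 higher and from 0 to 5 lower: 32 higher and 2 lower without Metrn cKO 2, and 5 lower without Metrn cKO 1. Whether the replicate numbers pair the mice is not stated. The difference between replicates 1 and 2 correlated at -0.71 across genes between the genotypes, so the numbers did not line up the alike libraries. With the crossed pairing, chosen after seeing the data, 37 genes were higher and 65 lower, and 0 members. The median of the 10 fold changes ran from -0.17 to 0.11 with each library left out. For single genes these ranges were -0.21 to 0.10 for Slc2a1, -0.30 to 0.75 for Hk1, -0.32 to 0.88 for Hk2, -0.28 to 0.39 for Pfkl, -0.60 to 0.23 for Aldoa, -0.57 to 0.085 for Tpi1, -0.17 to 0.25 for Pgk1, -0.35 to 0.52 for Eno1, -0.078 to 0.39 for Pkm and -0.59 to 0.054 for Ldha, so the sign of each turned with at least 1 library. The sign also turned for Slc2a1 when libraries were rescaled to equal sums (0.029), for Pgk1 with median-of-ratios rescaling (-0.014) and for Pfkl without the length trend (-0.15). A rescaling applies 1 factor to all genes of a library. The median over all tested genes moved from 0.07 to 0.15 with equal sums and to 0.03 with median-of-ratios rescaling. Causes beyond the scaling and the length trend were not tested. Without both Metrn f/f 2 and Metrn cKO 1 the sign turned for Hk2 (-0.43), Eno1 (-0.04) and Pkm (-0.04), and for the shares of Hk1 (5.43 points), Aldoa (-0.13) and Pkm (-0.22). With each library left out, differences in shares ran from -5.18 to 0.64 points for Slc2a1, -10.3 to 9.37 for Hk1, -1.65 to 1.39 for Hk2, -2.05 to 1.02 for Pfkl, -0.25 to 0.43 for Aldoa, -2.36 to 1.47 for Eno1, -0.15 to 0.63 for Pkm and -4.35 to 2.83 for Ldha.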

Other observations

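Hk1os, a gene antisense to Hk1, was at 2.43 and 4.26 FPKM in the control mice and at 0.861 and 1.73 in the Metrn cKO mice, with no overlap between the genotypes (log2 fold change -0.91, SE 0.56, unadjusted p = 0.15 and adjusted p = 1.00 by limma). Hk1 itself overlapped between the genotypes. No strand setting is stated, so reads of Hk1 and Hk1os cannot be told apart with certainty. Tpi-rs11, a copy related to Tpi1, also had groups that did not overlap (3.06 and 3.90 FPKM against 2.78 and 1.16), a result that did not pass (adjusted p = 1.00 by limma). Both were looked at after the member values were seen, among several genes related to the members. Of all tested genes, 5.73% lay below without overlap. Both genes were low, near the filter of 1 FPKM. Their transcripts are short, of 780.5 bases for Hk1os and 310 for Tpi-rs11. Over all genes with transcripts under 1000 bases, the median log2 fold change was -0.21. With the length trend subtracted, Metrn cKO 1 was 0.19 above Metrn f/f 2 for Tpi-rs11, so its groups overlapped. Those of Hk1os still did not overlap.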
